A study of Mus musculus with 6 samples.

Results

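Cytochrome P450 family 2 was examined in hepatocyte RNA-seq, taking as members every gene symbol made of Cyp2, 1 letter and a number. The count table held 49 such symbols among 53599. Another 24 symbols begin with Cyp2 and a letter but carry a further ending, 23 of them named as pseudogenes, and these were left out. The libraries came from hepatocytes of wild-type mice, as the labels put it, harvested 4 days after an adeno-associated virus of serotype 8 was injected. Per the study's methods the animals were male Rosa26-LSL-Cas9-EGFP mice on C57BL/6J, aged 4 to 8 weeks, and the virus was given by retro-orbital injection. The Sox4 group received a vector with HA-tagged Sox4 joined to Cre, and the empty vector (EV) group a vector with Cre but no Sox4, so Cre was shared by both groups. TBG, a promoter active in hepatocytes, drove both vectors, so Sox4 was raised in hepatocytes and not by its own regulation. Hepatocytes were taken after enzymatic digestion and Percoll enrichment, as bulk preparations. Each group had 3 libraries, 1 per mouse, and the comparison asks how the P450 genes of a hepatocyte change once Sox4 is present.

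Library totals ran from 15090629 to 16964860 counts. Sox4 itself had 2, 0 and 3 counts in EV libraries 1 to 3 and 21697, 15097 and 11816 in Sox4 libraries 1 to 3. Of the 10 hepatocyte markers listed, 9 were in the table and all were tested, and their summed level was 121310 to 144330 CPM in EV and 86668 to 100220 in Sox4. CPM, the usual unit of counts scaled to 1e06 per library, here uses library sizes rescaled by edgeR's trimmed mean method. Of these 9, 6 fell. Markers of other cells were low. Rises were called for 2 of 4 tested cholangiocyte, 3 of 4 stellate, 3 of 7 Kupffer and 2 of 8 endothelial markers, and a fall for 1 endothelial marker, while 29.0% of all genes tested rose and 26.0% fell. The 8 cholangiocyte markers summed to 27.7 to 43.8 CPM in EV and 72.0 to 85.0 in Sox4, with Krt7 and Krt19 at 0 in every EV library. The 8 stellate markers summed to 8.63 to 46.3 against 85.0 to 143, the 8 Kupffer markers to 9.86 to 23.7 against 23.7 to 59.6, and the 8 endothelial markers to 19.3 to 31.2 against 15.8 to 37.5. The 6 lymphoid or neutrophil markers stayed below 1 CPM in sum in every library, with Ms4a1 at 0 throughout. The part of these cells in the results was not tested, and in bulk RNA fewer cells of a type and less RNA per cell cannot be told apart. Xist had 0 to 3 counts in each library and the Y-linked Ddx3y 862 to 1789, so no library went against the male sex of the mice.

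P450 enzymes are heme proteins of the endoplasmic reticulum that oxidise drugs, steroids, fatty acids, bile acids and vitamin D, taking electrons from P450 oxidoreductase. Family 2 is the largest in the mouse, and most of its genes lie in tandem clusters of close copies, with the 2a, 2b, 2f, 2g, 2s and 2t genes together on chromosome 7, the 2d genes on chromosome 15, the 2c genes on chromosome 19 and the 2j genes on chromosome 4. In liver many members are zoned along the lobule, several are induced by the xenobiotic receptors CAR (Nr1i3) and PXR (Nr1i2), and some differ between the sexes under the control of growth hormone.

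Because the members are close copies, sequences set what the counts can tell apart. By protein, 14 pairs were at least 90% identical, and the closest pair was Cyp2a4 and Cyp2a5 at 97.6%. Their coding sequences of 1482 bases differed at 23 bases, and the longest stretch without a difference was 216 bases, so that a read inside it could come from either gene. The stretch below, coding bases 596 to 655, is shown because it tells the 2 genes apart, and the capitals mark the 4 bases that differ.
Cyp2a4: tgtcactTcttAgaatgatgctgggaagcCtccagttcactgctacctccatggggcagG
Cyp2a5: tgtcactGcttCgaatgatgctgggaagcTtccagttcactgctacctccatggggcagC
Of all 50-base windows in the transcripts of Cyp2a4, 36.1% also occurred in Cyp2a5. The pair Cyp2b9 and Cyp2b13 is easier to separate, with 107 of 1473 coding bases different. How reads with several possible origins were counted is not given in the sources used here, so values of single copies carry that uncertainty.

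The RefSeq table held promoters for 40 of the 49 members. The 250 bases before the annotated start (RefSeq, build GRCm38.p6, given 5′ to 3′ on the gene's strand) are printed for 2 near-identical members that were higher with Sox4, Cyp2a4 and Cyp2a5, for Cyp2c55, which also rose, and for abundant members that fell, Cyp2e1, Cyp2d9 and Cyp2c50. Capitals mark matches on either strand to ACAAAG or ACAATG, both forms of the SOX binding motif, to CAAAGTCC, a core of the HNF4A motif, or to TATAAA, the TATA box, so that ACAAAGTCC holds both a SOX and an HNF4A match.
Cyp2a4 (chr7:26306942-26307191, + strand): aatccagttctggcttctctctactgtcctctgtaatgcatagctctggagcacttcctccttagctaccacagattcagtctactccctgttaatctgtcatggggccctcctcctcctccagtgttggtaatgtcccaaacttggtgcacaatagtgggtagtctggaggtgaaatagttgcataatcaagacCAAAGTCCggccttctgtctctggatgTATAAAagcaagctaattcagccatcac
Cyp2a5 (chr7:26835089-26835338, + strand): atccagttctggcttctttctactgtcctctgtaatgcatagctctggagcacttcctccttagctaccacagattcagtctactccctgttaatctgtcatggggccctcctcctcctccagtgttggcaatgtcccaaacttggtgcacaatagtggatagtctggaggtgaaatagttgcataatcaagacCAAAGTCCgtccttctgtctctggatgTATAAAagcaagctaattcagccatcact
Cyp2c55 (chr19:39006769-39007018, + strand): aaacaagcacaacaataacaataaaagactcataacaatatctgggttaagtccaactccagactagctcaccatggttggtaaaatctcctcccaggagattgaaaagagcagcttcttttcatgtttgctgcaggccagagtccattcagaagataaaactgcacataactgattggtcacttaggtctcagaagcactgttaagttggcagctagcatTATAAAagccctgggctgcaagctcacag
Cyp2e1 (chr7:140763569-140763818, + strand): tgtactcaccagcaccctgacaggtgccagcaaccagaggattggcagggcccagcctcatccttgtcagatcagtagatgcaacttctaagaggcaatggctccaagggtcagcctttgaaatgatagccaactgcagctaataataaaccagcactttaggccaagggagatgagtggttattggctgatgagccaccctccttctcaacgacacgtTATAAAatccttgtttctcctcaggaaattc
Cyp2d9 (chr15:82452127-82452376, + strand): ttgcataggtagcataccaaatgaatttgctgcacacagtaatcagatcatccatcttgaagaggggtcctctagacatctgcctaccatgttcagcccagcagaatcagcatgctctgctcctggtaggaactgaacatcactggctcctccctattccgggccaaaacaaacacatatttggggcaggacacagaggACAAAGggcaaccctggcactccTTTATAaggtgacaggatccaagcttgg
Cyp2c50 (chr19:40089429-40089678, + strand): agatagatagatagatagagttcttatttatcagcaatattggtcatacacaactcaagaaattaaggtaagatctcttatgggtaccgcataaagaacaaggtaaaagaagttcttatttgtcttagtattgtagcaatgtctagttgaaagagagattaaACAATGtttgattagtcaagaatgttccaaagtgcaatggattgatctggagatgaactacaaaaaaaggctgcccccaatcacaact
The Cyp2a4 and Cyp2a5 windows are the same stretch shifted by 1 base, with 4 of 249 bases different, and each has CAAAGTCC and TATAAA. Cyp2c55 and Cyp2e1 have TATAAA only, Cyp2d9 has ACAAAG and TATAAA (the latter read on the other strand), and Cyp2c50 has ACAATG only. CAAAGTCC was found in the windows of 9 of 40 members (22.5%) and in 1.22% of all 27025 promoters of the table. The other 7 carriers were Cyp2c40, Cyp2c65, Cyp2c66, Cyp2c67, Cyp2c68, Cyp2c69 and Cyp2c70, most of them copies of one another. ACAAAG was in 40.0% of the members' windows against 16.5% of all, ACAATG in 22.5% against 10.99%, and TATAAA in 45.0% against 13.0%. Among the 15 members that fell and had a promoter, 7 held ACAAAG and 2 held CAAAGTCC, and among the 5 that rose none held ACAAAG and 2 held CAAAGTCC. Among the 8 that did not pass, 6 held ACAAAG and 3 held CAAAGTCC. These matches describe the letters in the windows and no binding was measured here.

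Of the 49 members, 34 had enough counts to be tested, and most of those were lower with Sox4. By edgeR's quasi-likelihood test with Benjamini-Hochberg adjustment over the 12691 genes tested, 21 members fell (61.8% of those tested), while 26.0% of all genes tested fell. Only 5 members rose (14.7%), while 29.0% of all genes tested rose, and 8 did not pass the threshold of 0.05. The median log2 fold change of the tested members was -1.21 and that of all genes tested 0.04. Of the 21 members that fell, 19 fell by at least 2-fold and 12 by at least 4-fold. In all 21 every Sox4 library lay below every EV library, and groups lay apart in this direction for 29.9% of all genes tested. In all 5 that rose, and in Cyp2b9, every Sox4 library lay above every EV library, and 33.1% of all genes tested lay apart that way. Without Sox4 replicate 3, which stood apart for several members below, 22 members were lower and 4 higher.

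**Figure D1:**
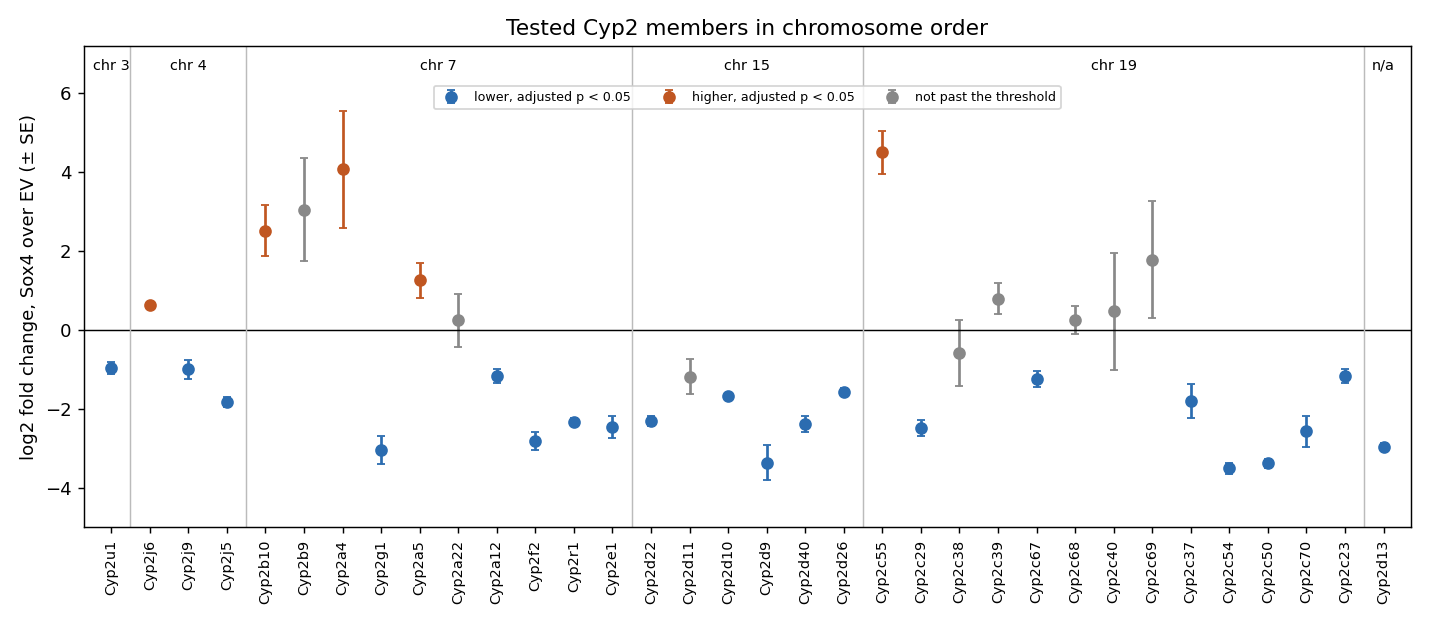
Log2 fold change of Sox4 over EV (vertical axis, ± SE of the difference between group means, n = 3 libraries per group) for the 34 tested members, placed in their order on each chromosome, with colour giving the edgeR call. Falls occur on every chromosome. The called rises of over 2 log2 units are Cyp2b10 and Cyp2a4 on chromosome 7 and Cyp2c55 at one end of the chromosome 19 genes. Cyp2b9 on chromosome 7, at 3.05, did not pass. Cyp2d13 has no position in the annotation used. The SE is computed from mean log2 CPM and drawn around edgeR's log2 fold change.

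The remaining 15 members were too low to test. Of these, 9 had no count in any library, namely Cyp2j7, Cyp2j11, Cyp2j12, Cyp2j13, Cyp2w1, Cyp2s1, Cyp2b23, Cyp2d34 and Cyp2c66. A count of 0 allows up to 0.231 CPM in EV replicate 1, the shallowest library, and 0.150 CPM in Sox4 replicate 1, taking 3 counts as the limit (counting error only). The other 6 had some counts. Cyp2j8, Cyp2b19, Cyp2t4, Cyp2d12 and Cyp2c65 had at most 8 in any library, and Cyp2b13 is described with the sex-biased members. Cyp2s1 and Cyp2w1 are known mainly outside the liver, as is Cyp2b19, a skin enzyme.

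Per length of transcript, the order of the members changed. In EV the highest mean levels in CPM per kilobase of exon were 2081 for Cyp2e1, 730.3 for Cyp2d9, 727 for Cyp2d10, 683 for Cyp2f2 and 557 for Cyp2d26. In Sox4 the highest were 906 for Cyp2a5, 488 for Cyp2a4, 379 for Cyp2e1, 226 for Cyp2d10 and 188 for Cyp2d26. On this scale Cyp2a4 moved from place 19 to place 2 and Cyp2d9 from place 2 to place 15. The levels of Cyp2d9 and Cyp2d10 in EV differed by less than the spread of Cyp2d9 between libraries.

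**Figure D2:**
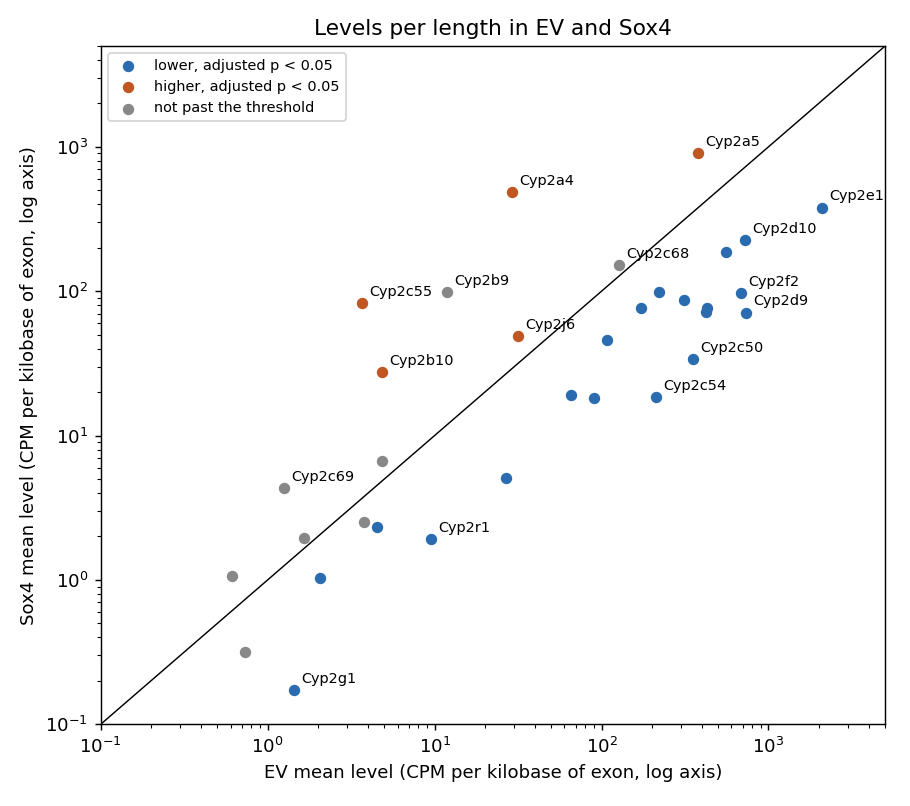
Mean level in EV (horizontal, log axis) and in Sox4 (vertical, log axis) in CPM per kilobase of exon for the tested members with a known exon length, 3 libraries per group, with the line of equal levels. Cyp2e1, highest in EV at 2081, lies below the line at 379 in Sox4, and Cyp2a5 lies above it at 906 in Sox4.

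The most abundant member fell. Cyp2e1, the ethanol and acetaminophen oxidising enzyme of hepatocytes around the central vein, was at 3643, 4569 and 5261 CPM in EV libraries 1 to 3 and at 1031, 839 and 585 in Sox4 libraries 1 to 3. The highest Sox4 library lay far below the lowest EV library. Its log2 fold change was -2.46 ± 0.28 (SE, n = 3 per group, edgeR adjusted p = 2.5e-05), a level 5.49-fold lower. The enzymes of both ends of the lobule were lower. Cyp2f2, the naphthalene-oxidising enzyme of periportal hepatocytes, was at 1553, 1288 and 1307 CPM in EV and 226, 144 and 220.3 in Sox4 (log2 fold change -2.81 ± 0.23, edgeR adjusted p = 4.65e-06). Of the 6 pericentral members listed, 5 fell (Cyp2e1, Cyp2c29, Cyp2c37, Cyp2c50 and Cyp2c54) and Cyp2a5 rose, while 26.0% of all genes tested fell and 29.0% rose. The median log2 fold change of these 6 members was -2.47, next to -2.81 for Cyp2f2, the only periportal member.

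The 2c subfamily oxidises drugs and arachidonic acid and, through Cyp2c70, makes muricholic acids. Of its 13 tested members, 7 fell, 1 rose and 5 did not pass, while 26.0% of all genes tested fell and 29.0% rose. Cyp2c29, an abundant inducible enzyme, was at 1460.0, 1278 and 1198 CPM in EV and 272, 248 and 181 in Sox4 (log2 fold change -2.49 ± 0.20, edgeR adjusted p = 5.66e-06). Cyp2c50 had 991, 1013 and 1096 CPM in EV and 113, 97.5 and 87.2 in Sox4, a narrow spread in both groups. It fell 10.4-fold (log2 fold change -3.38 ± 0.12, edgeR adjusted p = 4.11e-07). Its neighbour and near copy Cyp2c54 had 356, 381 and 395 CPM against 37.2, 27.5 and 34.6, the largest fall of the family (log2 fold change -3.51 ± 0.14, 11.4-fold lower, edgeR adjusted p = 3.09e-07), except without Sox4 replicate 2, where Cyp2d9 fell further. Cyp2c37, the third of this set of copies, fell less evenly, with 124, 120.2 and 117 CPM in EV and 24.1, 22.6 and 57.3 in Sox4, so that replicate 3 was over 2-fold above the other Sox4 libraries (log2 fold change -1.79 ± 0.43, edgeR adjusted p = 0.00542, and -2.36 without Sox4 replicate 3). Within the counts of these 3 genes Cyp2c37 took 7.28% to 8.41% in EV and 13.9%, 15.3% and 32.0% in Sox4. Summed over the 3 copies the log2 fold change was -3.20 (edgeR adjusted p = 4.67e-07), so reads exchanged between them would not change the fall of the set.

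Cyp2c70 was at 652, 591 and 1283 CPM in EV and 154, 110.0 and 163 in Sox4. EV replicate 3 stood well above the other EV libraries, and all EV libraries lay above all Sox4 libraries (log2 fold change -2.56 ± 0.39, edgeR adjusted p = 1.97e-04). The epoxygenase Cyp2c23 fell by 1.17 on the log2 scale and Cyp2c67 by 1.25. Cyp2c67 shares 95.1% of its protein sequence with Cyp2c68, and these 2 neighbours gave different values. Cyp2c67 was at 143, 192 and 229 CPM in EV and 76.1, 78.2 and 83.3 in Sox4, whereas Cyp2c68 was at 177, 258 and 223 in EV and 185, 216 and 380 in Sox4, with overlapping groups (log2 fold change 0.25 ± 0.35, edgeR adjusted p = 0.46). No test of the difference between these copies was run across all genes. Cyp2c68 took 48.3% to 54.8% of the counts of Cyp2c40, Cyp2c67, Cyp2c68 and Cyp2c69 in EV and 70.0% to 73.5% in Sox4, which an exact permutation test gave p = 0.1 (two-sided), the smallest that 3 against 3 libraries allow. Summed, these 4 copies had a log2 fold change of -0.22 (edgeR adjusted p = 0.504).

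The 2d subfamily, which holds the mouse relatives of the human drug-metabolising CYP2D6, fell more uniformly. Of 7 tested members 6 fell, while 26.0% of all genes tested fell. Cyp2d11, at most 1.54 CPM, did not pass (log2 fold change -1.18 ± 0.44, edgeR adjusted p = 0.0718, and -1.49 with adjusted p = 0.0471 without EV replicate 3). Cyp2d9, a male-biased testosterone hydroxylase, was at 2283, 1696 and 1845 CPM in EV and 241, 228 and 96.6 in Sox4, with replicate 3 lowest. It fell 10.3-fold (log2 fold change -3.36 ± 0.45, edgeR adjusted p = 6.63e-05). Cyp2d10 was at 1198, 1242 and 1156 CPM in EV and 362, 382 and 374 in Sox4, the member with the smallest standard error (log2 fold change -1.69 ± 0.04, edgeR adjusted p = 6.61e-06). Cyp2d26 had 1018, 1033 and 943 CPM against 357, 301 and 353 (log2 fold change -1.57 ± 0.09, edgeR adjusted p = 1.37e-05). Cyp2d13, which RefSeq lists as a transcribed pseudogene, was at 174, 215 and 202 CPM in EV and 23.9, 25.8 and 26.4 in Sox4 (log2 fold change -2.96 ± 0.10, edgeR adjusted p = 3.05e-07). Cyp2d22, the member most often set beside CYP2D6, fell by 2.31 on the log2 scale and Cyp2d40 by 2.39. Within the 2d genes the falls thus ran from 1.57 for Cyp2d26 to 3.36 for Cyp2d9.

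Smaller subfamilies were also lower where they could be tested, while 26.0% of all genes tested fell. Cyp2r1, the main vitamin D 25-hydroxylase, was at 20.7, 20.7 and 19.1 CPM in EV and 4.36, 3.52 and 4.21 in Sox4 (log2 fold change -2.32 ± 0.10, edgeR adjusted p = 3.3e-06). Cyp2u1, a fatty acid hydroxylase, was at 22.4, 24.8 and 24.3 CPM against 13.3, 13.6 and 9.78 (log2 fold change -0.96 ± 0.16, edgeR adjusted p = 6.66e-04). Cyp2g1, known best from olfactory tissue, was low in EV at 1.93, 4.33 and 3.05 CPM and lower still in Sox4 at 0.351, 0.46 and 0.304, which is 25 to 57 counts against 6 to 9 (log2 fold change -3.04 ± 0.35, edgeR adjusted p = 3.01e-04). Per length these 3 genes were at 1.45 to 9.54 CPM per kilobase in EV, beside 2081 for Cyp2e1.

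The 2j genes, whose products make epoxides from arachidonic acid, went both ways on 1 chromosome. Cyp2j5 was at 699, 704 and 785 CPM in EV and 229, 210.4 and 174 in Sox4 (log2 fold change -1.83 ± 0.13, edgeR adjusted p = 8.65e-06). Its neighbour Cyp2j9 was low, at 6.78, 5.01 and 8.86 CPM against 3.61, 3.63 and 3.09 (log2 fold change -0.999 ± 0.24, edgeR adjusted p = 0.00797, and 0.0981 when scaled by library size alone). Cyp2j6, next to Cyp2j9, rose from 106, 110.3 and 125 CPM to 165, 185 and 176 (log2 fold change 0.62 ± 0.09, edgeR adjusted p = 0.00142), the smallest of the rises and the one with the smallest error. The other 5 2j genes were not tested.

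Few members rose, and by very different amounts. Cyp2a5, the coumarin 7-hydroxylase, was at 842, 699 and 809.9 CPM in EV and 2023, 2639 and 972 in Sox4, so replicate 3 was only a little above the EV libraries. The log2 fold change was 1.26 ± 0.44 (edgeR adjusted p = 0.00863), and leaving out Sox4 replicate 1 took the call away (1.20, adjusted p = 0.0624). Cyp2a4, a female-biased steroid 15-alpha-hydroxylase, was at 3.39, 107 and 41.1 CPM in EV and at 683, 1076 and 783 in Sox4. The EV libraries differed 31.5-fold among themselves and the Sox4 libraries 1.57-fold. The log2 fold change of 4.07 ± 1.48 passed narrowly (16.8-fold higher, edgeR adjusted p = 0.0371). Without EV replicate 3 it did not pass (3.93, adjusted p = 0.136), nor without Sox4 replicates 1, 2 or 3 (adjusted p = 0.0987, 0.0819 and 0.0805), and without EV replicate 2 the log2 fold change was larger, at 5.23.

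Summed, Cyp2a4 and Cyp2a5 were at 845, 806 and 851 CPM in EV and 2706, 3715 and 1756 in Sox4 (log2 fold change 1.71, edgeR adjusted p = 3.05e-04). Cyp2a4 made up 0.401%, 13.2% and 4.83% of the 2 genes' counts in EV and 25.3%, 29.0% and 44.6% in Sox4 (exact permutation test, two-sided p = 0.1, the smallest possible). The third abundant 2a gene, Cyp2a12, went the other way, with 732, 787 and 781 CPM in EV and 282, 320.1 and 418 in Sox4 (log2 fold change -1.17 ± 0.17, edgeR adjusted p = 2.45e-04). Cyp2a12 and its near copy Cyp2a22 lie next to Cyp2a5 on chromosome 7, and Cyp2a12 had at least 97.0% of the counts of this pair in every library. Cyp2a22 was at 4.72 to 7.06 CPM in EV and 2.56, 4.85 and 12.7 in Sox4, with no change called (log2 fold change 0.24 ± 0.68, edgeR adjusted p = 0.726).

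**Figure D3:**
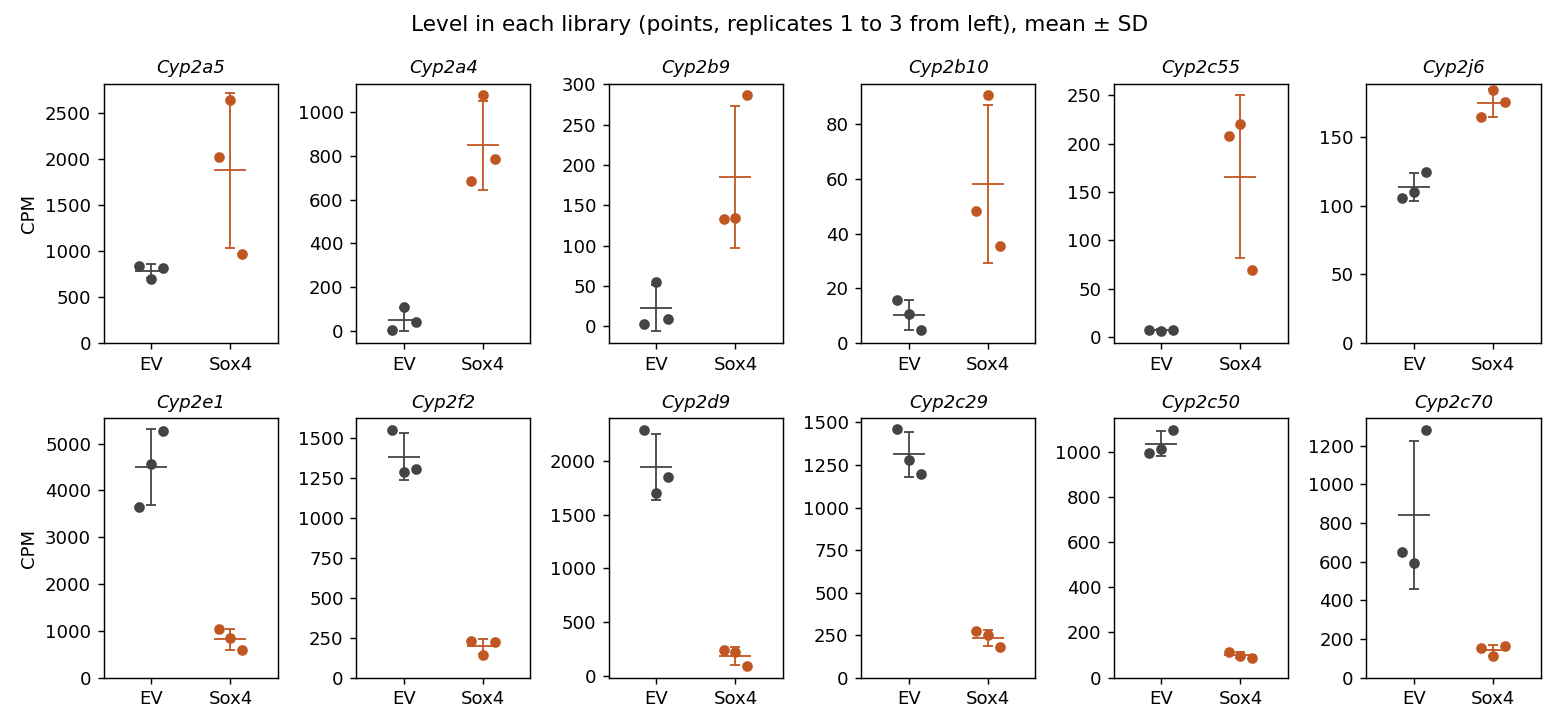
Level in CPM (vertical axes, each with its own scale) of 12 members in the 3 EV and 3 Sox4 libraries, with the group mean and its SD. In the upper row the Sox4 libraries lie above the EV libraries, with Cyp2a5 at 972 CPM and Cyp2c55 at 69.2 CPM in Sox4 replicate 3 well below the other Sox4 libraries. In the lower row all Sox4 libraries lie below all EV libraries.

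Of the 4 members listed as induced through CAR or PXR, 2 rose and 2 fell. Of all genes tested, 29.0% rose and 26.0% fell, and so short a list was not tested against these shares. Cyp2b10, the standard CAR target, was at 15.6, 10.5 and 4.58 CPM in EV and 48.3, 90.5 and 35.6 in Sox4 (log2 fold change 2.51 ± 0.65, edgeR adjusted p = 0.00925, and 0.053 with no filter on low counts). Cyp2c55 was at 8.09, 6.45 and 7.41 CPM in EV and 208, 220.1 and 69.2 in Sox4, the largest rise of the family in this fit (log2 fold change 4.50 ± 0.55, 22.6-fold higher, edgeR adjusted p = 5.01e-04). Sox4 replicate 3 was about 3-fold under the other Sox4 libraries but over 8-fold above any EV library. Cyp2a4 exceeded Cyp2c55 with limma-voom (log2 fold change 5.06 against 4.33), limma on the deposited signal (5.07 against 4.32) and the replicate block (4.804 against 4.34), and without EV replicate 2 (5.23 against 4.40). The other 2 inducible members listed, Cyp2c29 and Cyp2c37, fell by 2.49 and 1.79 on the log2 scale. Nr1i3, the gene of CAR, was at 32.7, 30.9 and 24.2 CPM in EV and 7.37, 6.39 and 7.45 in Sox4 (log2 fold change -2.05 ± 0.15, edgeR adjusted p = 7.64e-06), and Nr1i2, the gene of PXR, did not pass (0.11 ± 0.16, adjusted p = 0.512).

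Several sex-biased members varied widely between libraries of the same group. All mice were male, and both male-biased members listed, Cyp2d9 and Cyp2u1, fell, as did 26.0% of all genes tested. Of the 7 female-biased members listed, 6 were tested, of which Cyp2a4 rose and 5 did not pass, while 29.0% of all genes tested rose. Cyp2b9 was at 2.62, 54.9 and 9.59 CPM in EV and 134, 135 and 286 in Sox4, with the groups apart (log2 fold change 3.05 ± 1.31, edgeR adjusted p = 0.0738), and it passed without EV replicate 2 (4.90, adjusted p = 0.00506). Its copy Cyp2b13 had 0, 3 and 0 counts in EV and 6, 10 and 460 in Sox4, nearly all of it in replicate 3. Cyp2b9 took 99.8% and 99.6% of the pair's counts in Sox4 replicates 1 and 2 and 92.5% in replicate 3.

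The same library led in the female-biased 2c genes. Cyp2c40 was at 2.39, 17.6 and 9.44 CPM in EV and 2.00, 3.88 and 35.0 in Sox4. Cyp2c69 was at 0.616, 5.01 and 0.799 CPM in EV and 1.15, 2.04 and 18.9 in Sox4. Cyp2c38 was at 8.32, 16.5 and 7.84 CPM in EV and 3.26, 2.86 and 15.5 in Sox4, and without Sox4 replicate 3 it was called lower (log2 fold change -1.82, edgeR adjusted p = 0.00286, against -0.59 and 0.526 with it). Cyp2c39, which oxidises retinoic acid, was at 1.002, 1.44 and 0.871 CPM in EV and 1.504, 1.28 and 2.99 in Sox4. In EV, replicate 2 was the highest library for all of these genes and for Cyp2a4 and Cyp2b9. In Sox4, replicate 3 was the highest for all of them but Cyp2a4. Among all 34 tested members, EV replicate 2 was the highest EV library for 17 and Sox4 replicate 3 the highest Sox4 library for 13. Cyp2a12, Cyp2a22, Cyp2c68 and Cyp2d13, not on the female-biased list, were also highest in both of these libraries. Of these members, Cyp2a12 and Cyp2d13 were called lower with Sox4. The male-biased Cyp2d9 was lowest in these same libraries of each group, at 1696 and 96.6 CPM, while Cyp2u1 was highest in EV replicate 2, at 24.8 CPM, and lowest in Sox4 replicate 3, at 9.78. Cux2, a factor normally present in female liver, where it represses male-biased genes, had 2, 0 and 0 counts in EV and 77, 26 and 219 in Sox4, again highest in replicate 3 (edgeR adjusted p = 0.00314). Bcl6, a repressor of female-biased genes, was at 19.6, 11.5 and 57.2 CPM in EV and 3.01, 19.4 and 19.1 in Sox4, with no change called. Stat5b, which carries the growth hormone signal, fell by 0.79 on the log2 scale.

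**Figure D4:**
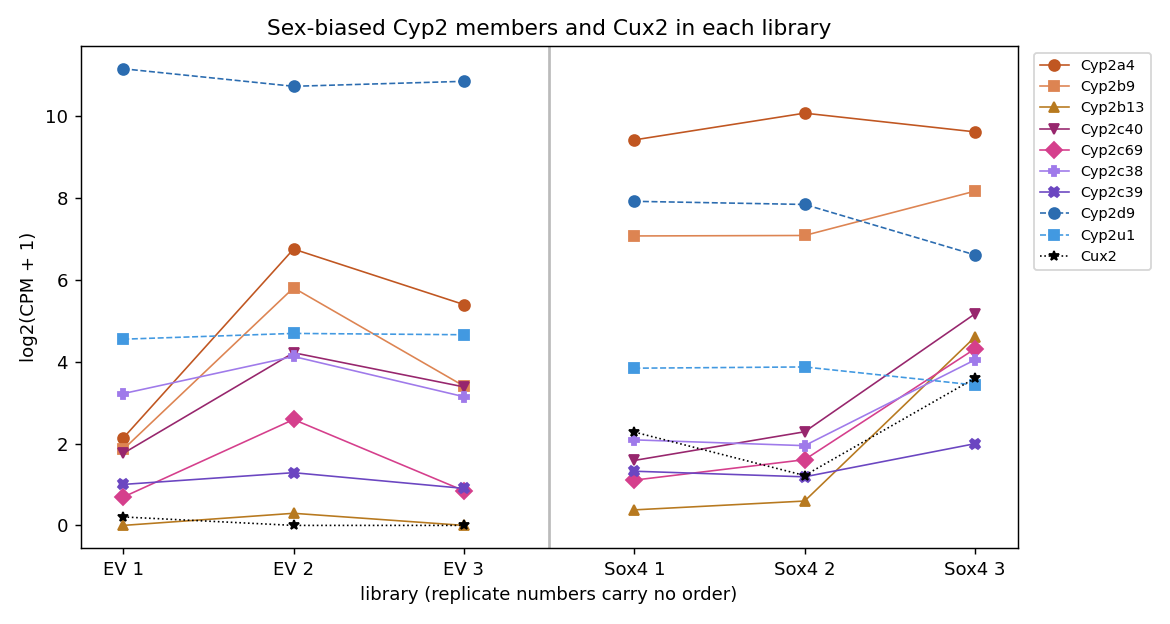
Level as log2(CPM + 1) (vertical axis) of 7 female-biased members (solid lines), the male-biased Cyp2d9 and Cyp2u1 (dashed) and Cux2 (dotted) in each library, where lines only join the points of a gene. EV replicate 2 is the highest EV library for every female-biased member, and Sox4 replicate 3 is the highest Sox4 library for all of them but Cyp2a4. Among all 34 tested members, EV replicate 2 is highest in its group for 17 and Sox4 replicate 3 for 13.

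As a whole the family took a smaller part of the RNA. All 49 members made up 1.46%, 1.45% and 1.58% of the counts in EV and 0.843%, 0.927% and 0.692% in Sox4. The means were 1.498% ± 0.07 and 0.821% ± 0.12 (SD, n = 3), a difference of -0.677 percentage points, and the groups did not overlap (exact permutation test, two-sided p = 0.1, the smallest possible). The make-up of this pool also differed. Members that gained share took 45.4 percentage points of it between the group means. Cyp2a5 went from 4.45% ± 0.47 of the family's counts to 26.0% ± 8.7, and Cyp2a4 from 0.286% ± 0.30 to 12.2% ± 2.3. Cyp2e1 went from 25.4% ± 3.5 to 11.6% ± 2.4, Cyp2d9 from 11.05% ± 2.1 to 2.63% ± 0.89 and Cyp2f2 from 7.87% ± 1.1 to 2.91% ± 0.98. For each of these 5 members the groups did not overlap and the exact permutation test gave p = 0.1. The 2a genes together held 8.77% to 9.32% of the pool in EV and 37.1% to 51.2% in Sox4, and the 2d genes 24.2% to 30.0% and 12.9% to 15.6%. Shares of counts also depend on transcript length, and a rise of 1 member lowers the share of the rest.

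**Figure D5:**
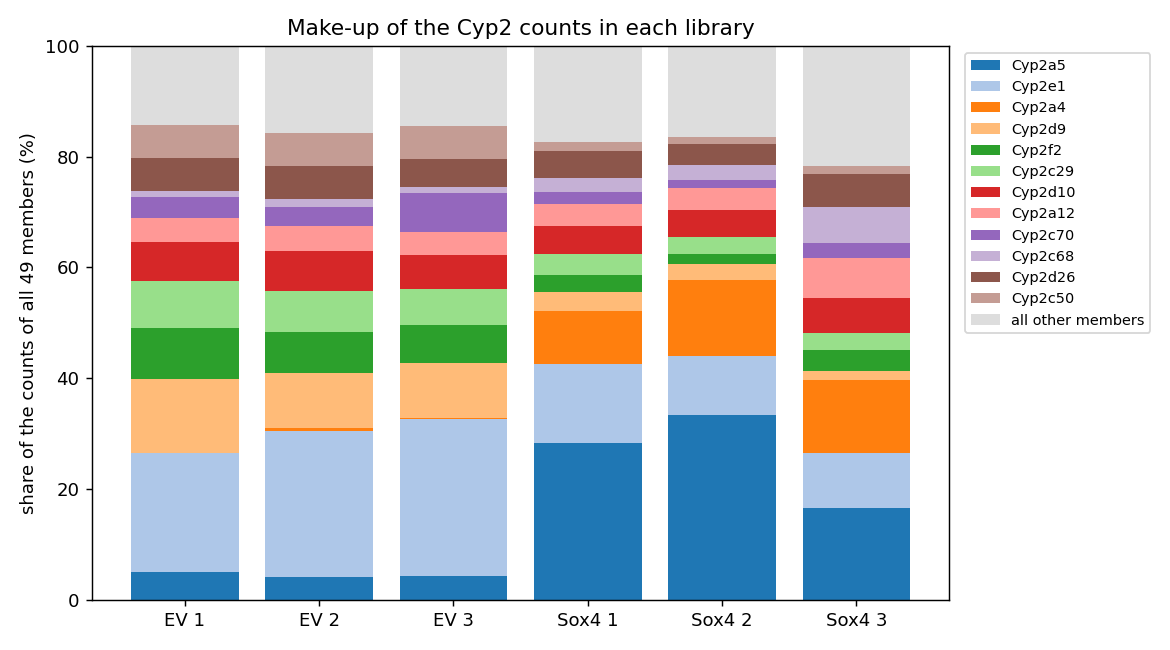
Share of the counts of all 49 members (vertical axis, percent) held by 12 members and by all others together, in each library. Cyp2a5 and Cyp2a4 widen from at most 4.96% and 0.62% in an EV library to at least 16.5% and 9.53% in a Sox4 library, while Cyp2e1 narrows from at least 21.4% to at most 14.4%.

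Of 17 partner and heme synthesis genes that serve P450 enzymes, all tested, 10 fell, 2 rose and 5 did not pass, with a median log2 fold change of -0.59. Of all genes tested 26.0% fell and 29.0% rose. Por, the electron donor of every microsomal P450, rose from 221, 195 and 245 CPM to 375, 370.0 and 323 (log2 fold change 0.69 ± 0.12, edgeR adjusted p = 0.00181). The cytochrome b5 genes fell, with log2 fold changes of -0.86 for Cyb5a and -1.29 for Cyb5b, as did Cyb5r3, the cytochrome b5 reductase (-1.57). Pgrmc1 and Pgrmc2, heme-binding partners of P450s, fell by 1.12 and 0.59 on the log2 scale. Falls in the heme pathway included Urod (-0.94), Cpox (-1.05) and Fech (-0.29, edgeR adjusted p = 0.0497). Alas1, the rate-limiting enzyme of liver heme synthesis, spread widely, at 63.1, 387 and 483 CPM in EV and 199, 475 and 418 in Sox4, and had no call. On the side of heme breakdown, Hmox1 rose (log2 fold change 2.32 ± 0.21, edgeR adjusted p = 1.12e-05) and Blvrb fell by 0.81.

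Of 28 regulators listed for P450 genes, all tested, 10 fell, 7 rose and 11 did not pass, with a median log2 fold change of -0.16. Of all genes tested 26.0% fell and 29.0% rose, and the list was not tested against these shares. Besides Nr1i3, the falls included the CAR and PXR partner Rxra (-1.19), the hepatocyte factors Cebpa (-1.34), Cebpb (-1.40) and Hnf4a (-0.60), the bile acid receptor Nr1h4 (-0.50), and Ncoa1 (-0.92), Stat5b (-0.79) and Arnt (-0.41). Rises were called for Nfe2l2 (1.21), a known activator of Cyp2a5, for Ahr (0.93), Foxa1 (1.32), Foxa3 (0.60), Onecut2 (0.68) and Ctnnb1 (0.41), whose product sustains pericentral genes, and for Cux2. Ppara, Foxa2 and Nr0b2 were among those with no call.

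P450 families 1, 3 and 4 hold other liver enzymes of drugs, steroids and fatty acids. Of their 27 genes, 18 were tested, of which 6 fell, 4 rose and 8 did not pass, with a median log2 fold change of -0.20. Of all genes tested 26.0% fell and 29.0% rose. Neither the difference from these shares nor that from family 2 was tested. Cyp3a11, the most abundant of them in counts, fell from 6503, 4488 and 3621 CPM to 1821, 2034 and 1309 (log2 fold change -1.50 ± 0.31, edgeR adjusted p = 7.28e-04). Cyp3a13 (-2.02), Cyp4v3 (-1.59), Cyp4f14 (-1.37), Cyp4f13 (-0.82) and Cyp4f15 (-0.44) also fell, and Cyp4a31 (2.51), Cyp4f16 (2.14), Cyp1a1 (1.43) and Cyp3a59 (1.20) rose. Cyp1a2, which like Cyp2e1 is a pericentral enzyme, did not pass, at 1028, 888 and 936 CPM in EV and 1291, 1183 and 686 in Sox4 (log2 fold change 0.15 ± 0.29, edgeR adjusted p = 0.596).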

How the data were processed

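RNA of hepatocytes from 3 EV and 3 Sox4 mice was sequenced. Per the submitters' processing notes the authors aligned reads to GRCm39 with STAR 2.7.10b and deposited raw counts per gene from featureCounts 2.0.1. The annotation release, strand setting and handling of multi-mapping reads are not given in the sources used here. The authors also deposited a normalized signal, the counts divided by a DESeq2 size factor per library, used only in an alternative. Depth was 15090629 to 16964860 counts per library.

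Counts were tested with edgeR 4.0.16 (R 4.3.3) by quasi-likelihood, with TMM scaling, a filter of 10 counts (15 in total) and Benjamini-Hochberg adjustment over all 12691 genes tested. The script was checked on data made with known changes. SE is that of the difference of mean log2 CPM with a prior count of 2. It is printed beside edgeR's log2 fold change, a different estimate, so it describes the spread of libraries and is not edgeR's own error. Shares were compared with exact permutation tests (SciPy 1.17.1). Exon lengths and protein identity came from GENCODE M21 (GRCm38), which lacks Cyp2d13, and promoters from RefSeq (GRCm38.p6), so gene coordinates of GRCm39 are not printed. Samples took group and replicate number from their labels. The numbers did not pair the samples (correlations of deviations between same-numbered libraries 0.27, -0.09 and 0.13). Members, lists and tests were chosen with earlier results of these data known. By rule, values per library are given for the 3 most abundant members of each large subfamily, every tested member of the small ones, every member that rose and the 5 largest falls, and members of the other lists are named where they passed, except for some that are not reported here. Alternatives were DESeq2 1.42.0 and its size factors, limma 3.58.1 (voom, and log2 of the deposited signal with a pseudocount of 1), library size alone, no filter, a mean count of at least 50, leaving out each library, a replicate block and summed copies.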

Additional observations from a re-analysis of the deposited data

How the results depend on the processing

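The number of members past the threshold was 26 and stayed between 24 and 28 under the alternatives that count single members. Those that leave out 1 library gave 24 to 27. With near-identical copies summed it was 22, but a set of copies then counts only 1 time. The number lower was 21 and stayed between 20 and 22 where single members were counted, and was 18 with copies summed. The number higher was 5, became 8 with library size alone and 3 with no filter, and ran from 3 to 6 when 1 library was left out. Library size alone moved the median of all genes from 0.04 to 0.51 (log2), and the 8 higher members are to be read relative to that shift. Cyp2b9, Cyp2c39 and Cyp2c68 were the added members. Of 473 values of single members under alternatives, 443 kept their direction and side of the threshold and 11 turned direction, all for members without a call. Cyp2a22 became -0.0508 with limma-voom, -0.0461 with limma on the deposited signal and -0.00799 with the replicate block, and Cyp2c40 became -0.197, -0.177 and -0.0865. With 1 library left out, Cyp2a22 ran from -0.61 to 0.63, Cyp2c40 from -1.73 to 1.18, Cyp2c68 from -0.13 to 0.44 and Cyp2c69 from -0.42 to 3.35, and each was below 0 without Sox4 replicate 3 (Cyp2c40 also, at -0.003, without EV replicate 1). The replicate block gave 25 members past the threshold, losing Cyp2a4 (4.804, edgeR adjusted p = 0.0864). Cyp2b9 passed with DESeq2 (adjusted p = 0.0146) and limma-voom (adjusted p = 0.0281). The share of the family in the library differed by -0.906 percentage points once mitochondrial genes and the 10 most abundant other genes left the total, and by -0.730 to -0.612 with 1 library left out. The causes were not tested. Depth limits the members below about 1 CPM, and 3 mice per group limit every test.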

Other observations

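Sox4 replicate 3 also stood apart in family 4. Cyp4a14, a fatty acid omega-hydroxylase, was at 194, 225 and 141 CPM in EV and 15.3, 40.6 and 569.5 in Sox4, and Cyp4a10 at 359, 318 and 173 in EV and 18.4, 63.0 and 250.1 in Sox4, neither with a call. In both genes Sox4 replicates 1 and 2 lay below all EV libraries and replicate 3 within or above their range.

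Alas2, the heme synthesis enzyme of red cells, was counted among the erythroid markers and not among the heme genes above. It was at 126, 106 and 92.5 CPM in EV and 14.6, 10.98 and 4.10 in Sox4 (log2 fold change -3.45 ± 0.56, edgeR adjusted p = 6.87e-04). The hemoglobin genes listed with it were near 0, with at most 5 counts of any in an EV library and at most 22 in a Sox4 library.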
